A study of Mus musculus with 28 samples.

Results

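The choroid plexus genes described here are 9 transcripts that mark the epithelium of the choroid plexus: Ttr, Enpp2, Folr1, Prlr, Kl, Aqp1, Clic6, Slc4a5 and Otx2. They were taken by symbol, as genes known for this epithelium, and found in the hippocampal count tables by Ensembl gene ID. The choice was made with earlier results of these data known. All 9 were found among 55487 gene IDs, and all 9 passed the filter on low counts in both cohorts. The libraries are polyadenylated RNA of mouse hippocampus, taken at 9 months of age after behaviour tests, with 3 libraries per genotype and 24 in all. The Ripk1 cohort holds WT, 5xFAD, Ripk1 D138N and Ripk1 D138N 5xFAD libraries, where D138N is a homozygous mutation of the kinase RIPK1 that removes its catalytic activity. The Zbp1 cohort holds WT, 5xFAD, Zbp1 KO (homozygous null for the nucleic acid sensor ZBP1) and Zbp1 KO 5xFAD libraries. Each cohort has WT mice of its own. 5xFAD mice carry mutant human transgenes under the Thy1 promoter, which is active in neurons. Nothing in the labels states that the 3 libraries of a group are 3 animals, and p-values here measure the spread between libraries, which may be technical.

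The choroid plexus is a vascular fold covered by a cuboidal epithelium that hangs in the brain ventricles and secretes most of the cerebrospinal fluid. Its epithelial cells pump sodium, bicarbonate and chloride towards the ventricle, let water follow through aquaporin, and release carrier proteins made in the cell. In the lateral ventricle the plexus is attached along the fimbria, directly beside the hippocampus. In bulk tissue, fewer cells of a type and less RNA per cell cannot be told apart.

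Library totals were 16.6 to 44.8 M counts for Ripk1 and 8.4 (WT 1) to 34.6 M for Zbp1, whose next lowest total was 27.1 M. Levels are given in CPM, read counts scaled to a common library total. Zbp1 was at 0.298 to 0.351 CPM in Zbp1 KO 5xFAD and 1.77 to 3.62 CPM in 5xFAD of that cohort, but WT (0 to 0.373 CPM) and Zbp1 KO (0 to 0.318 CPM) overlapped near 0, so their labels could not be checked this way; a point mutation such as D138N does not show in gene counts. All 14 genes of a hippocampal neuron list were counted in every library, with a summed level of 1490 to 2070 CPM. WT 2 and 5xFAD 2 of the Zbp1 cohort stood apart in Malat1, a nuclear noncoding RNA: they had 969 and 782 CPM, and the other 22 libraries had 1938 to 2978 CPM. Calls of the Zbp1 cohort, its correlations with Ttr and its values at equal Ttr are also given without both.

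Among the secreted proteins, Ttr encodes transthyretin, the carrier of thyroxine and retinol-binding protein that the choroid plexus releases into cerebrospinal fluid. In the Ripk1 cohort Ttr was at 571, 2524 and 232 CPM in WT 1, 2 and 3, and at 1548, 4272 and 22.8 CPM in 5xFAD 1, 2 and 3. In the same cohort it was at 3317, 4316 and 27.5 CPM in Ripk1 D138N 1, 2 and 3, and at 1684, 77.5 and 3354 CPM in Ripk1 D138N 5xFAD 1, 2 and 3. Each genotype of the Ripk1 cohort held high and low libraries side by side, and all 4 genotypes overlapped. In the Zbp1 cohort Ttr was at 118, 4329 and 74.6 CPM in WT 1, 2 and 3, and at 17.2, 4369 and 3604 CPM in 5xFAD 1, 2 and 3. It was at 311, 1197 and 71.9 CPM in Zbp1 KO 1, 2 and 3, and at 277, 2445 and 2280 CPM in Zbp1 KO 5xFAD 1, 2 and 3. The 4 genotypes of this cohort overlapped as well, and the highest library of the 24 was 255 times the lowest, both of them 5xFAD libraries of the Zbp1 cohort.

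Enpp2 encodes autotaxin, a secreted enzyme that makes lysophosphatidic acid, and is also made by oligodendrocytes. Its level ran from 136 CPM in Ripk1 D138N 3 to 3011 CPM in Zbp1-cohort 5xFAD 3, a 22.1-fold range. In the 3 libraries lowest in Ttr (Zbp1-cohort 5xFAD 1, Ripk1-cohort 5xFAD 3 and Ripk1 D138N 3), Enpp2 was still at 182, 185 and 136 CPM. The group means of Enpp2 were 914 ± 855 CPM in WT and 740 ± 677 CPM in 5xFAD of the Ripk1 cohort, and 808 ± 1010 and 1530 ± 1420 CPM in those of the Zbp1 cohort (SD, n = 3 each).

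The receptors followed the same libraries. Folr1, the high-affinity folate receptor that carries folate across the epithelium, was at 5.48, 24 and 0.951 CPM in WT and at 7.52, 17.3 and 0.416 CPM in 5xFAD of the Ripk1 cohort. For the Zbp1 cohort the values of Folr1 were 1.08, 37.5 and 1.04 CPM in WT and 0.737, 25.9 and 27.2 CPM in 5xFAD. The high Folr1 libraries were those high in Ttr, and the range over 24 libraries was 90.1-fold. Prlr, the prolactin receptor, ran from 5.83 to 139 CPM, a 23.9-fold range. Kl encodes klotho, the co-receptor for fibroblast growth factor 23, which is also shed into cerebrospinal fluid. Kl had the narrowest range of the 9, from 20.4 to 281 CPM or 13.8-fold.

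The channels and transporters carry out fluid secretion. Slc4a5 encodes the apical sodium bicarbonate cotransporter NBCe2. It was at 9.97, 37.9 and 2.47 CPM in WT and at 11.5, 32.2 and 0.192 CPM in 5xFAD of the Ripk1 cohort, and at 49.0, 59.9 and 0.512 CPM in Ripk1 D138N and 23.9, 0.673 and 44.1 CPM in Ripk1 D138N 5xFAD. The Zbp1 libraries had Slc4a5 at 1.91, 28.8 and 0.975 CPM in WT, 0.258, 27.6 and 58.7 CPM in 5xFAD, 1.96, 7.75 and 1.5 CPM in Zbp1 KO, and 4.57, 37.2 and 35.5 CPM in Zbp1 KO 5xFAD. Slc4a5 ran over a 312-fold range, with 6 counts in the lowest library (5xFAD 3 of the Ripk1 cohort), so its size against the 255-fold range of Ttr is not resolved by counting. Every genotype again overlapped every other. Aqp1, the apical water channel, ran from 0.718 to 39.0 CPM, a 54.3-fold range whose low end was 6 counts in Zbp1-cohort WT 1. Clic6, a chloride intracellular channel protein, ran from 4.80 to 148 CPM, a 30.8-fold range.

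**Figure D1:**
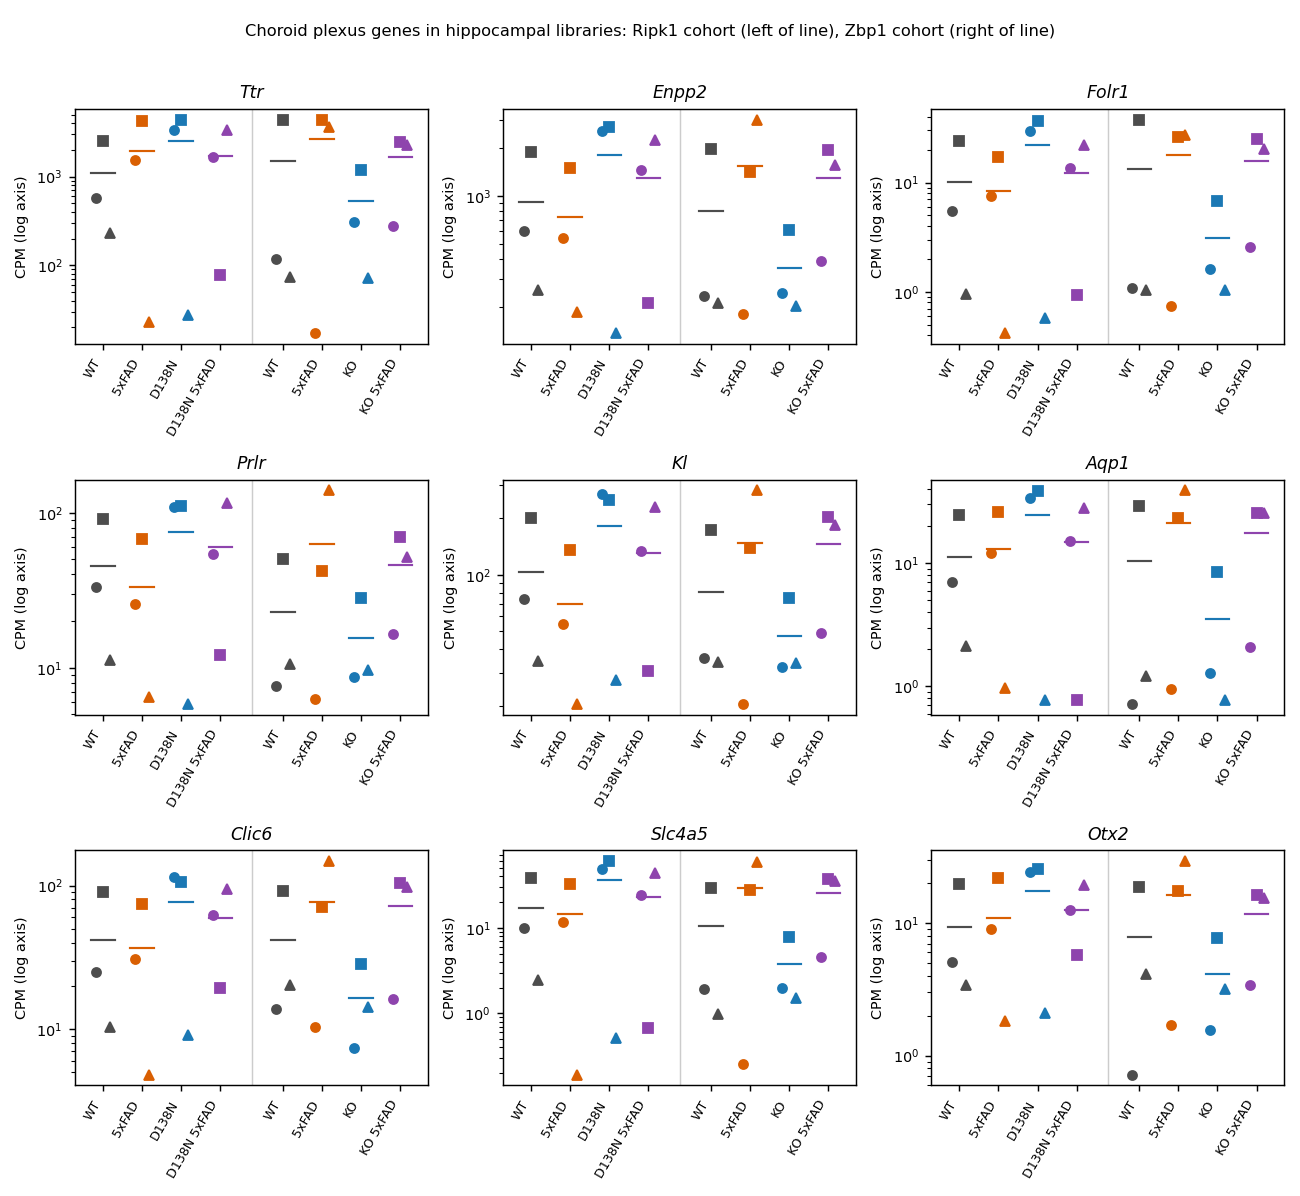
Level of each gene in CPM (log axis) in the 24 hippocampal libraries, by genotype, with the Ripk1 cohort left and the Zbp1 cohort right of the line. Circles, squares and triangles are replicates 1, 2 and 3 and bars are group means; within each genotype of the Ripk1 cohort Ttr spans from 10.9-fold (WT) to 187-fold (5xFAD).

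Otx2 is the homeobox transcription factor that the choroid plexus epithelium needs to form and to be kept, and its protein is also released to the ventricle. Otx2 ran from 0.718 CPM in Zbp1-cohort WT 1, where it too rested on 6 counts in the shallowest library, to 29.3 CPM in Zbp1-cohort 5xFAD 3, a 40.8-fold range. An antisense transcript, Otx2os1, lies at the same locus and correlated with Ttr at nearly the same r (0.923 and 0.853). Reads of Otx2 and Otx2os1 could not be told apart, because no source used here states whether strand was used in counting.

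Promoter windows (250 bases before to 50 after a RefSeq start, build GRCm38.p6) were held for 5 of the genes: 1 each for Kl, Aqp1 and Slc4a5, 4 for Otx2 and 3 for Prlr. They were searched on both strands for TAATCC, the core bound by OTX and other bicoid-type homeodomains, for TAAACA, a forkhead core, and for the E-box CAGCTG; these 3 words do not overlap one another in a window shown here. TAATCC was found in 1 of the 10 windows, against 7.06% of 32851 mouse promoters of the same length. That window belongs to start 3 of Otx2 itself, and the match lies on the reverse strand. TAAACA was found in 2 of the 10 windows, both of Prlr, against 13.4% of all promoters. CAGCTG was found in 2 of the 10, 1 of Prlr and that of Slc4a5, against 16.3%. The windows of Otx2 and Slc4a5 are printed because the first holds the only TAATCC match and the second belongs to the member whose level was most like that of Ttr; capitals mark the match.
Otx2, start 3, chr14:48665060-48665359, minus strand: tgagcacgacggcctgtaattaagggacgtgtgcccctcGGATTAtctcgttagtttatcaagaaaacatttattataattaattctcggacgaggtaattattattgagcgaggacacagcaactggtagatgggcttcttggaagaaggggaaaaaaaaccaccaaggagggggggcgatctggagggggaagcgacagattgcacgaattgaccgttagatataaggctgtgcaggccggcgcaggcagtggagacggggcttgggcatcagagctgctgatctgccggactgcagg
Slc4a5: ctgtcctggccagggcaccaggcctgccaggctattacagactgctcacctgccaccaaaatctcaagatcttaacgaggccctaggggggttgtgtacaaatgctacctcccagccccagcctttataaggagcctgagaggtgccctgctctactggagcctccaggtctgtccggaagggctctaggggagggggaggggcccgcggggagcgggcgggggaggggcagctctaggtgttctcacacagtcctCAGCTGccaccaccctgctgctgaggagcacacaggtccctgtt

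The 9 genes split the libraries of a cohort in the same way: the 6 lowest, the 7th and the 5 highest libraries were the same for every gene, with exchanges of place within the 6 and within the 5. In the Ripk1 cohort Ripk1 D138N 5xFAD 1 ranked 7 of 12 for each of the 9 genes, and in the Zbp1 cohort Zbp1 KO 2 did so. The lowest 4 libraries by Ttr in the Ripk1 cohort (5xFAD 3, Ripk1 D138N 3, Ripk1 D138N 5xFAD 2 and WT 3) held ranks 1 to 5 for every gene. They came from the 4 genotypes of that cohort, 1 library each. By Ttr in the Zbp1 cohort, WT ranked 3, 4 and 11 and 5xFAD 1, 10 and 12. Zbp1 KO ranked 2, 6 and 7, and Zbp1 KO 5xFAD 5, 8 and 9. Places moved more in the Zbp1 cohort, where Zbp1 KO 1 ranked from 1 (Clic6) to 6 (Ttr), WT 1 from 1 to 5 and 5xFAD 2 from 8 to 12. Within genotypes, the SD of log2 CPM of Ttr was 3.32 in the Ripk1 cohort, 2nd highest of 21376 genes, and 3.10 in the Zbp1 cohort, the highest of 21274 genes. The median gene had a within-genotype SD of 0.215 and 0.298. The lowest of the 9 genes by this measure was Kl in the Zbp1 cohort, at the 98.6th percentile of all genes.

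Correlation with Ttr was computed on log2 CPM over the 12 libraries of a cohort for every tested gene, with p from 100000 permutations and Benjamini-Hochberg adjustment over all genes. In the Ripk1 cohort Pearson's r ran from 0.920 (Kl) to 0.987 (Slc4a5), and all 8 genes passed, with adjusted permutation p of 0.00822 to 0.0145. Of all genes there, 0.524% correlated positively past the threshold. Spearman's rho ran from 0.902 to 0.958, with adjusted permutation p of 0.00855 to 0.0317. In the Zbp1 cohort r ran from 0.857 (Otx2) to 0.971 (Slc4a5). There 4 of 8 passed, against 0.0987% of all genes: Slc4a5 and Folr1 (adjusted permutation p = 0.0193 each), Kl and Enpp2 (0.0483 each). Aqp1 (r = 0.939, adjusted permutation p = 0.0555), Prlr (0.912 and 0.079), Otx2 (0.857 and 0.158) and Clic6 (0.862 and 0.166) did not pass. None of the 8 passed by rho in this cohort, where rho ran from 0.755 to 0.979 and the adjusted permutation p from 0.0532 to 0.27. Folr1 had the smallest permutation p possible (1e-05), which adjusted to 0.0532. No gene of the cohort therefore passed by rho, and the 0 says nothing of the 8. Without the 2 libraries farthest from the median of Ttr, r was 0.881 to 0.992 in the Ripk1 cohort and 0.853 to 0.981 in the Zbp1 cohort. On deviations from genotype means, 8 of 8 passed in each cohort, against 2.29% and 1.67% of all genes. There the permutation took the 12 deviations as exchangeable although 4 means had been removed, so these p-values are too small. Without both libraries low in Malat1, 3 of 8 passed in the Zbp1 cohort (0.0658% of all genes), with r of 0.817 to 0.973. For the Zbp1 cohort the count passing was 0 when any 1 of 10 of its 12 libraries was left out. No gene of the whole cohort passed in those 10 settings (0.0%), so the 0 says nothing of the 8. The count was 2 without WT 2 (0.0423% of all genes) and 4 without WT 1 (0.118%). Over these 12 settings r stayed between 0.840 and 0.981.

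Likeness to Ttr of the genes outside the 9 was taken as the lower r of the 2 cohorts, over 20679 genes tested in both, as a description. The first was Kcne2 (0.975), a potassium channel subunit of the apical membrane. It was followed by the tight junction protein Cldn2 (0.961), the potassium channel Kcnj13 (0.958), the membrane frizzled-related protein Mfrp (0.95) and Ecrg4 (0.949), which encodes a secreted peptide precursor. Next came Oca2 (0.948), the secreted Wnt and BMP modulator Sostdc1 (0.946), the cadherin Cdh3 (0.944), the retinol dehydrogenase Rdh5 (0.943) and Tmem72 (0.942). The rest of the first 20 were Col8a1 (0.926), the coagulation factor F5 (0.923), Steap1 (0.919), the angiotensin-converting enzyme Ace (0.913), Wdr86 (0.905), Cab39l (0.900), the lactate transporter Slc16a8 (0.896), Spint2 (0.895), the lipopolysaccharide-binding protein Lbp (0.893) and Col8a2 (0.892). Of these 20, 15 were on the list of further epithelial genes described next, and Oca2, Cdh3, Slc16a8, Spint2 and Col8a2 were on none of the lists.

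A list of 39 further choroid plexus epithelium genes had a median likeness of 0.864, and 30 of them reached 0.8, against a median of -0.196 over all genes, of which 88 reached 0.8. The 4 highest of that list were Kcne2, Cldn2, Kcnj13 and Mfrp. Its summed level ran over a 3.3-fold range in each cohort, against 36.4-fold and 30.6-fold for the sum of the 9 genes. A sum of CPM follows its most abundant genes and does not give the range of single genes. The within-genotype SD of log2 CPM was 3.45 and 2.55 for Tmem72 of that list, but 0.262 and 0.193 for Slc4a10 (Ripk1 and Zbp1 cohorts). No gene of the lists for neighbouring tissue and other cells reached a likeness of 0.8. Some had an r above 0.8 in 1 cohort alone. Esm1 of fenestrated vessels had 0.888 in the Zbp1 cohort (adjusted permutation p = 0.0193) and 0.655 in the Ripk1 cohort. Of the fibroblast and meningeal genes, Dcn had 0.818 (Zbp1) and 0.243 (Ripk1), and Col1a2 0.439 and 0.822. The median likeness was 0.350 for 17 fibroblast and meningeal genes, 0.266 for 7 genes of fenestrated vessels, 0.180 for 14 tested ependymal genes and 0.058 for 10 genes of choroid plexus macrophages. It was -0.106 for 13 tested genes of thalamus and habenula, -0.126 for 15 oligodendrocyte and myelin genes and -0.308 for 14 hippocampal neuron genes. Summed levels ran over 2.24-fold (ependymal, both cohorts), 2.72-fold and 2.35-fold (fibroblasts and meninges), 1.1-fold and 1.23-fold (fenestrated vessels), 1.38-fold and 1.83-fold (macrophages), 2.07-fold and 1.6-fold (thalamus and habenula), 2.11-fold and 1.53-fold (myelin) and 1.25-fold and 1.38-fold (hippocampal neurons) in the Ripk1 and Zbp1 cohorts. Their part in the levels of the 9 genes was not tested.

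**Figure D2:**
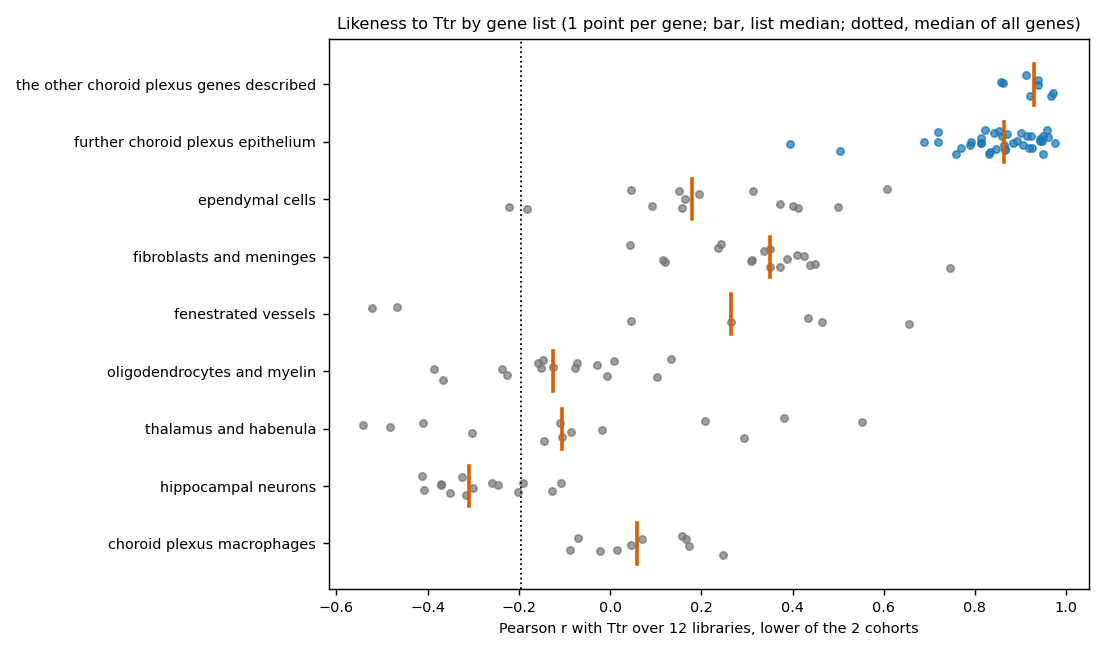
Likeness to Ttr (lower Pearson r of the 2 cohorts, 12 libraries each) for each tested gene of the 9 lists; bars are list medians and the dotted line is the median of all genes tested. The 8 other choroid plexus genes lie between 0.857 and 0.971, and 30 of 39 further epithelial genes reach 0.8, which no gene of the lists for other cells does. The lists were chosen with earlier results of these data known.

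Genotype contrasts were fitted with edgeR's quasi-likelihood test over all tested genes of a cohort, with Benjamini-Hochberg adjustment. Contrasts of a cohort share libraries, and their values are given side by side for that reason. In the Ripk1 cohort 0 of the 9 genes passed in 5xFAD against WT (16.1% of all genes passed), Ripk1 D138N 5xFAD against Ripk1 D138N (3.37%), carriers of 5xFAD against non-carriers (18.9%), Ripk1 D138N 5xFAD against 5xFAD (0.365%), Ripk1 D138N against WT (0.0%) and the interaction, the 5xFAD effect on Ripk1 D138N minus that on WT (0.0281%). In the Zbp1 cohort 0 of 9 passed in 5xFAD against WT (3.13%), Zbp1 KO 5xFAD against Zbp1 KO (1.23%), carriers against non-carriers (4.87%), Zbp1 KO 5xFAD against 5xFAD (0.0%), Zbp1 KO against WT (0.0%) and the interaction (0.0%). DESeq2 also gave 0 of 9 in each of the 12, where it called, in the same order, 22.7%, 6.42%, 22%, 1.7%, 0.0% and 0.373% of all genes in the Ripk1 cohort and 4.86%, 2.33%, 7.14%, 0.881%, 0.0047% and 0.0% in the Zbp1 cohort. At an unadjusted edgeR p under 0.05 the count was 0 of 9 in 10 of the contrasts, 1 in Zbp1 KO 5xFAD against Zbp1 KO (Clic6) and 4 in the Zbp1 carriers contrast (Kl, Slc4a5, Prlr and Clic6). The shares of all genes under that p were 29.9%, 14.3%, 31.0%, 12.3%, 2.4% and 7.47% in the Ripk1 cohort and 12%, 7.59%, 15.0%, 8.81%, 3.66% and 2.26% in the Zbp1 cohort, in the same order.

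The intervals were wide. For Ttr the log2 fold change of 5xFAD against WT was 0.74 ± 1.54 (SE; 95% interval -2.57 to 4.06; edgeR adjusted p = 0.8) for the Ripk1 cohort, and 0.79 ± 1.52 for Zbp1. On the mutant background it was -0.62 ± 1.54 with Ripk1 D138N and 1.64 ± 1.55 with Zbp1 KO. Over both backgrounds, carriers differed from non-carriers by 0.06 ± 1.08 in the Ripk1 cohort and by 1.21 ± 1.08 (-1.10 to 3.53; edgeR adjusted p = 0.699) in the Zbp1 cohort. Ttr in mutant 5xFAD against 5xFAD was at -0.16 ± 1.53 (Ripk1) and -0.69 ± 1.51 (Zbp1), and in mutant against WT at 1.2 ± 1.55 and -1.55 ± 1.54. The interactions were -1.36 ± 2.17 and 0.86 ± 2.13. Differences of several fold in either direction lie inside these intervals. In simulated counts with the same 12 libraries, 82.8% of 99 genes changed 4-fold were called in 5xFAD against WT of the Ripk1 cohort and 69.4% of 98 in that of the Zbp1 cohort. Those are genes across the whole table, whose median spread within a genotype (0.215 and 0.298) is far below that of Ttr (3.32 and 3.10), so such differences were not detectable for Ttr at its spread.

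The other genes showed the same. The lowest and highest of the 9 in 5xFAD against WT were Kl (-0.62 ± 0.87) and Ttr in the Ripk1 cohort, and Folr1 (0.35 ± 1.21) and Prlr (1.37 ± 0.88) in the Zbp1 cohort. They were Folr1 (-0.89 ± 1.27) and Prlr (-0.36 ± 1.0) in Ripk1 D138N 5xFAD against Ripk1 D138N, and Otx2 (1.47 ± 0.96) and Slc4a5 (2.78 ± 1.33) in Zbp1 KO 5xFAD against Zbp1 KO. In mutant 5xFAD against 5xFAD they were Ttr and Kl (0.93 ± 0.87) in the Ripk1 cohort, and Ttr and Kl (-0.03 ± 0.77) in the Zbp1 cohort. In mutant against WT they were Prlr (0.75 ± 1.0) and Ttr in the Ripk1 cohort, and Folr1 (-2.18 ± 1.30) and Prlr (-0.63 ± 0.89) in the Zbp1 cohort. In the interactions they were Ttr and Prlr (0.15 ± 1.42) in the Ripk1 cohort, and Prlr (0.18 ± 1.23) and Folr1 (1.98 ± 1.76) in the Zbp1 cohort. Median log2 fold changes of the 9 were -0.27 (5xFAD against WT) and -0.44 (carriers) in the Ripk1 cohort and 0.88 and 1.37 in the Zbp1 cohort, beside medians within 0.02 of 0 over all genes.

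**Figure D3:**
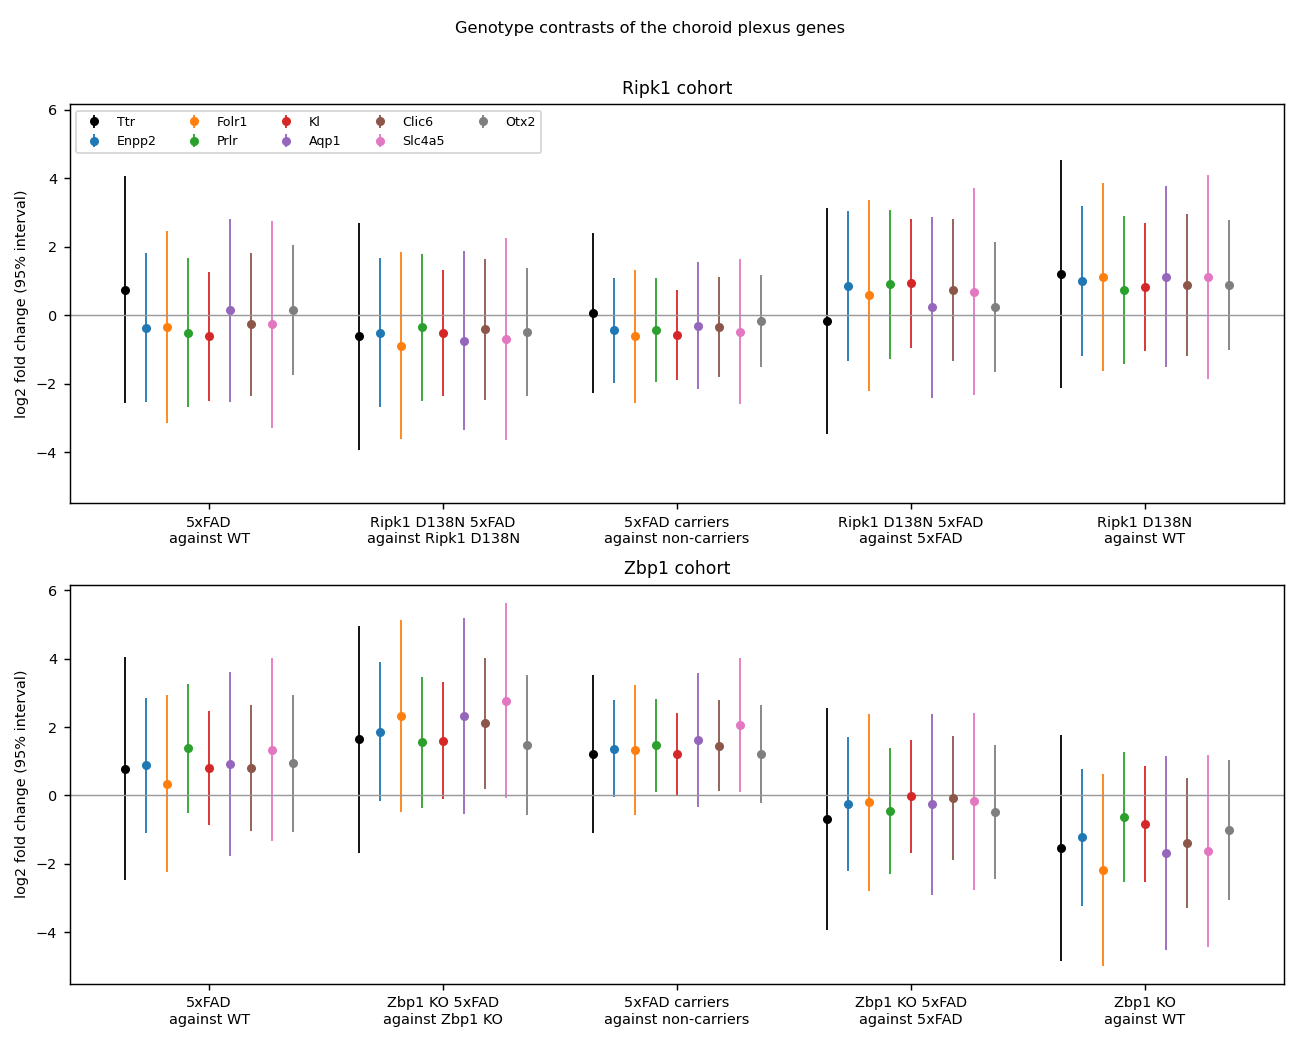
Log2 fold change with its 95% interval for the 9 genes in 5 genotype contrasts of each cohort. None of the 9 passed at an adjusted p of 0.05, and the SE of Ttr was 1.08 to 1.55 in these contrasts.

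The Zbp1 carriers contrast depended on which libraries entered. There all 9 log2 fold changes were positive, from 1.21 ± 0.56 (Kl) to 2.06 ± 0.91 (Slc4a5), with edgeR adjusted p of 0.263 to 0.699. Without WT 2, the WT library with 4329 CPM of Ttr, 3 of 9 passed (5.13% of all genes did): Slc4a5 (3.64, edgeR adjusted p = 0.0421), Folr1 (3.21, 0.0436) and Enpp2 (2.32, 0.0327). Without both libraries low in Malat1, WT 2 and 5xFAD 2, 7 of 9 passed (9.95% of all genes did): all but Ttr (2.95, edgeR adjusted p = 0.0784) and Otx2 (1.97, 0.0766). Both are libraries high in Ttr. With the replicate number as a block, 1 of 9 passed (Clic6, 1.33, edgeR adjusted p = 0.0379; 5.98% of all genes did). With all genes of at least 1 count kept in the test, 9 of 9 passed (4.31% of all genes did) at nearly the same fold changes. That fit shrank the variance of all genes towards a common trend with 3220 prior degrees of freedom, against 6.11 with the filter.

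No gene of the 9 had 3 libraries of one genotype all above or all below the 3 of the other in any pair of genotypes. The share of all genes that were apart in this way was 34.8% (5xFAD against WT), 19.2% (Ripk1 D138N 5xFAD against Ripk1 D138N), 15.1% (Ripk1 D138N 5xFAD against 5xFAD) and 7.7% (Ripk1 D138N against WT) in the Ripk1 cohort. For the Zbp1 cohort it was 13.7%, 21.4%, 14.3% and 11.8% in the same order. Among the 39 further epithelial genes, 0 passed in 9 of the 12 contrasts. Slc4a10, a sodium-driven bicarbonate exchanger that neurons also express, was lower in 5xFAD than in WT of the Ripk1 cohort (-0.54 ± 0.17, edgeR adjusted p = 0.0462) and in carriers of that cohort (-0.48 ± 0.12, 0.013). Slc12a2, the sodium, potassium and chloride cotransporter NKCC1, was higher in carriers of the Zbp1 cohort (0.54 ± 0.14, 0.0327). Their likeness to Ttr was 0.395 and 0.505, the 2 lowest of that list.

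The genes were then compared at equal Ttr, with the log2 CPM of Ttr as a covariate. The covariate is one of the 9 genes and is itself an outcome, so these values describe the other 8 relative to Ttr. The median SE of the 8 in 5xFAD against WT of the Ripk1 cohort was 0.28, against 1.01 without the covariate. Slc4a5 was the 1 of 8 that passed there (16.7% of all genes passed), with a log2 fold change of -0.99 ± 0.18 (-1.38 to -0.61; edgeR adjusted p = 0.00261). It was also the 1 of 8 that passed in carriers of the Ripk1 cohort (19.5% of all genes), at -0.57 ± 0.12 (edgeR adjusted p = 0.00488). The carriers contrast averages 5xFAD against WT with Ripk1 D138N 5xFAD against Ripk1 D138N, so its call is not a separate result. In the latter Slc4a5 was at -0.16 ± 0.17 (edgeR adjusted p = 0.757), and in the interaction at 0.84 ± 0.25 (0.539). A count of 1 in 8 is below these shares of all genes and says nothing of the 8 as a group. The shares of all genes passing in the other contrasts, where 0 of 8 passed, were 3.59%, 0.374%, 0.0% and 0.0374% in the Ripk1 cohort (Ripk1 D138N 5xFAD against Ripk1 D138N and against 5xFAD, Ripk1 D138N against WT, and the interaction). Those of the Zbp1 cohort were 3.64% (5xFAD against WT), 1.55% (Zbp1 KO 5xFAD against Zbp1 KO), 5.52% (carriers), 0.0% (Zbp1 KO 5xFAD against 5xFAD), 0.0% (Zbp1 KO against WT) and 0.0% (interaction).

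As counts, Slc4a5 per 100 Ttr counts was 1.75, 1.5 and 1.07 in WT 1, 2 and 3 of the Ripk1 cohort, and 0.746, 0.754 and 0.842 in 5xFAD 1, 2 and 3. These are the counts the fit used, from the gene it called, and add no support to it. The value of 5xFAD 3 rested on 6 Slc4a5 counts (exact 95% Poisson interval 0.309 to 1.83, counting error only), an interval that spans all 3 WT values. The 3 values of each group did not overlap, as for 0.374% of all genes taken per Ttr count. A gene that does not follow Ttr carries the spread of Ttr in this ratio, so that share is no background for one that does. Ripk1 D138N had 1.48, 1.39 and 1.86, and Ripk1 D138N 5xFAD 1.42, 0.869 and 1.32. Leaving out each of the 12 libraries in turn gave a log2 fold change of Slc4a5 at equal Ttr of -1.08 to -0.84 (edgeR adjusted p = 0.000866 to 0.0263) in 5xFAD against WT. With Kcne2 as the covariate in place of Ttr it was -0.79 ± 0.19 (edgeR adjusted p = 0.0118; 16.8% of all genes passed).

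In the Zbp1 cohort Slc4a5 per 100 Ttr counts was 1.62, 0.666 and 1.31 in WT and 1.5, 0.631 and 1.63 in 5xFAD, and the groups overlapped (0.353% of all genes did not). WT 2 and 5xFAD 2, the libraries low in Malat1, were the low ones of these 6. Zbp1 KO 1 and 2, which were not low in Malat1, had similar values (0.63 and 0.648), beside 2.09 in Zbp1 KO 3. Zbp1 KO 5xFAD 1, 2 and 3 had 1.65, 1.52 and 1.56. The log2 fold changes of Slc4a5 at equal Ttr were positive, opposite in sign to those of the Ripk1 cohort. They were 0.59 ± 0.39 (-0.26 to 1.43; edgeR adjusted p = 0.606) in 5xFAD against WT, 1.11 ± 0.37 (0.31 to 1.90; 0.256) in Zbp1 KO 5xFAD against Zbp1 KO and 0.85 ± 0.29 (0.24 to 1.46; 0.116) in carriers. Without both libraries low in Malat1 they were 0.69 ± 0.50 (edgeR adjusted p = 0.545), 1.05 ± 0.29 (0.0678) and 0.87 ± 0.32 (0.112). Without 5xFAD 3 the first was -0.12 (edgeR adjusted p = 0.895). The second passed without 5xFAD 3 (1.17, edgeR adjusted p = 0.0129), and the third without 5xFAD 2 (1.03, 0.00723), and also without Zbp1 KO 3 (0.95). Whether the difference itself varied between cohorts was not tested. The signs were not particular to Slc4a5. At equal Ttr all 8 genes were positive in these Zbp1 contrasts, with medians of 0.47, 0.79 and 0.66 in the same order. In the matching contrasts of the Ripk1 cohort 1, 0 and 1 of 8 were positive, with medians of -0.38, -0.18 and -0.24. All 8 are taken relative to the same Ttr values, so their signs are not independent.

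Enpp2 was the other gene whose call at equal level depended on the setting. At equal Ttr it did not pass in the Zbp1 cohort. Carriers had a log2 fold change of 0.68 ± 0.20 (edgeR adjusted p = 0.0606), beside 0.58 ± 0.27 (0.373) for 5xFAD against WT and 0.78 ± 0.28 (0.342) for Zbp1 KO 5xFAD against Zbp1 KO. Without both libraries low in Malat1, Enpp2 was the 1 of 8 that passed in each of these, at 0.87 ± 0.14 (edgeR adjusted p = 0.000725; 8.88% of all genes passed), 1.0 ± 0.21 (0.00812; 5.43%) and 0.73 ± 0.18 (0.037; 2.85%). At equal Kcne2 it was the 1 of 9 that passed in carriers of the Zbp1 cohort, at 0.50 ± 0.12 (edgeR adjusted p = 0.0218; 5.0% of all genes). Slc4a5 was the 1 of 9 that passed at equal Kcne2 in 5xFAD against WT and in carriers of the Ripk1 cohort (-0.55 ± 0.13 in carriers, edgeR adjusted p = 0.00885; 19.6%). At equal Kcne2, 0 of 9 passed in the remaining contrasts, where the share of all genes was 3.62% or less.

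Ttr also varied against Prlr. The hippocampal libraries held 2.74 to 104 Ttr counts per Prlr count, with the highest values in 5xFAD 2 and WT 2 of the Zbp1 cohort (104 and 86.0) and 63.3 in the next. The 4 RNA immunoprecipitation libraries (input and ZBP1 precipitate from WT and from 5xFAD hippocampus, 1 library each, with no test possible) had 0.0508 to 0.154 Ttr counts per Prlr count. Ttr was at 0.785 CPM (7 counts, exact 95% Poisson interval 0.316 to 1.62 CPM) in the WT input and at 0.847 CPM (8 counts, 0.366 to 1.67) in the 5xFAD input. In the precipitates it was at 1.39 CPM (8 counts, 0.601 to 2.74) in WT and at 0.441 CPM (3 counts, 0.0909 to 1.29) in 5xFAD. The Ttr intervals of precipitate and input overlapped in both genotypes and cover counting error only. Prlr was at 9.31 and 11.6 CPM in the WT and 5xFAD inputs and at 9.05 and 8.67 CPM in the precipitates. These tables list genes by symbol and were made separately from the hippocampal ones, so levels were not compared across them.

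In the authors' deposited tables of their own comparisons none of the 9 genes was called. The log2 fold changes in the authors' deposited tables ran from -0.64 to 0.73 for 5xFAD over WT in the Ripk1 cohort and from 0.42 to 1.43 for the same in the Zbp1 cohort. For 5xFAD over Ripk1 D138N 5xFAD the authors' deposited table gave -0.94 to 0.15, and for 5xFAD over Zbp1 KO 5xFAD it gave 0.02 to 0.68. The adjusted p-values in the authors' deposited tables ran from 0.653 to 0.994 over these genes and comparisons.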

How the data were processed

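Hippocampal polyadenylated RNA was sequenced in 2 cohorts of 12 libraries, with groups taken from the labels. The authors deposited 1 table of counts per cohort, integer reads for each Ensembl gene, a count table of 4 RNA immunoprecipitation libraries, and tables of their own comparisons with log2 fold changes and adjusted p-values, per the file headers. HISAT2, edgeR 4.0.16 and DESeq2 1.42.1 are named in the submitters' processing notes, with builds mm10 (GRCm38) and mm39 (GRCm39); the step each served, and strand use, were not given in the sources used here. No gene coordinates are printed other than RefSeq promoter windows with their own build.

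Computed here with edgeR 4.0.16 and DESeq2 1.42.0 in R 4.3.3: TMM factors, filterByExpr by genotype (21376 and 21274 genes kept) and a quasi-likelihood fit of the 12 libraries of a cohort with 1 mean per genotype, giving 6 contrasts per cohort. A gene passed at a Benjamini-Hochberg adjusted p under 0.05. The SE is the absolute log2 fold change divided by the square root of F. CPM are counts over the library total without TMM, and log2 CPM use TMM and a prior count of 2. The fit was tested on simulated counts. Correlations used Python 3.11.15 with 100000 permutations, for which the smallest p is 1e-05.

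Fold changes are printed for Ttr, for any member past the threshold in the contrasts as fitted or at equal Ttr or Kcne2, and for the lowest and highest member of a contrast; of other genes, the 20 most like Ttr are named. The members, the gene lists (choroid plexus epithelium, ependyma, fibroblasts and meninges, fenestrated vessels, oligodendrocytes and myelin, thalamus and habenula, hippocampal neurons, choroid plexus macrophages) and the alternatives were chosen with earlier results of these data known. Alternatives were RLE factors, no filter, DESeq2, a replicate block, Ttr as a covariate and each library left out. The exclusion of the 2 libraries low in Malat1, Kcne2 as a covariate and the libraries left out at equal Ttr were added after the data were seen.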

Additional observations from a re-analysis of the deposited data

How the results depend on the processing

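The count of choroid plexus genes past the threshold was 0 in all 12 contrasts under RLE factors and DESeq2. Without the filter it was 8 (5xFAD against WT; 2.84% of all genes), 9 (Zbp1 KO 5xFAD against Zbp1 KO; 1.73%), 9 (carriers; 4.31%), 1 (Zbp1 KO 5xFAD against 5xFAD; 1.37%), 9 (Zbp1 KO against WT; 0.259%) and 6 (interaction; 0.0801%) in the Zbp1 cohort, where prior degrees of freedom were 3220 against 6.11, and 0 in the Ripk1 cohort (40.3 against 5.39). With the Ttr covariate it was 1 in 5xFAD against WT (16.7% of all genes) and 1 in carriers (19.5%) of the Ripk1 cohort. Without the 2 libraries low in Malat1 it was 7 in Zbp1 carriers (9.95% of all genes) and 0 in the other contrasts of that cohort. Leaving out 1 library gave 0 to 3 in Zbp1 carriers (3 without WT 2, where 5.13% of all genes passed) and 0 in the other contrasts. A count printed in this section without a share of all genes is not read as a result about these genes. Choroid plexus genes correlating with Ttr numbered 7 to 8 in the Ripk1 cohort with 1 library left out (0.267% to 0.641% of all genes). They numbered 0 to 4 in the Zbp1 cohort (0.0% to 0.118%), where each 0 came with no gene of the whole cohort passing. On deviations from genotype means, whose p-values are too small, they numbered 8 there (1.67%). They numbered 2 without TMM (0.0752% of all genes) and 2 with a prior count of 0.5 (0.0799%), against 4. The cause was not tested.

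Same-numbered libraries of a cohort correlated at -0.218 to 0.243 (Ripk1, median 0.025) and -0.111 to 0.402 (Zbp1, median 0.072) in their deviations from genotype means. Other pairs correlated at -0.3 to 0.213 (median -0.013) and -0.339 to 0.213 (median -0.038). The best correlation was with the own number for 7 and 8 of 12 libraries. That share is larger than the share of same-numbered pairs (18, beside 36 others, per cohort). The ranges overlapped, and the numbers were not taken to pair the libraries, but pairing is not excluded. With the replicate block the count was 1 in Zbp1 carriers (5.98% of all genes) and 0 in the other contrasts. The block turned the sign, with no call, in Ripk1 D138N 5xFAD against Ripk1 D138N (Ttr 1.59, Folr1 0.76, Prlr 0.69), Ripk1 carriers (Folr1 0.24), Ripk1 D138N 5xFAD against 5xFAD (Ttr 2.24), the interactions (Ttr 1.28 in Ripk1, -0.13 in Zbp1) and Zbp1 KO 5xFAD against 5xFAD (Kl 0.09).

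Other log2 fold changes turned sign, none of them past the threshold. With the Ttr covariate these were Kl in Zbp1 KO 5xFAD against 5xFAD (0.0) and Prlr in the Zbp1 interaction (-0.15). Without the 2 libraries low in Malat1 they were Ttr (2.47), Folr1 (1.56) and Prlr (0.72) in Zbp1 KO against WT, and Ttr (-2.6), Prlr (-1.4) and Folr1 (-1.4) in the Zbp1 interaction. With 1 library left out the ranges crossed 0 for 5xFAD against WT in Ripk1 (Ttr -0.55 to 2.19, Kl -1.54 to 0.29) and Zbp1 (Folr1 -0.21 to 4.09), Ripk1 D138N 5xFAD against Ripk1 D138N (Prlr -1.22 to 0.13), Ripk1 carriers (Ttr -0.59 to 0.79, Folr1 -1.22 to 0.2), Ripk1 D138N 5xFAD against 5xFAD (Ttr -1.1 to 1.13), the Ripk1 interaction (Prlr -0.85 to 1.23), Zbp1 KO 5xFAD against 5xFAD (Kl -0.54 to 0.84), Zbp1 KO against WT (Ttr -3.0 to 2.47, Folr1 -3.38 to 1.56, Prlr -1.37 to 0.74) and the Zbp1 interaction (Ttr -3.16 to 2.31, Prlr -1.19 to 1.53, Folr1 -1.76 to 3.18).

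At equal Ttr, Slc4a5 in 5xFAD against WT of the Zbp1 cohort was at -0.12 to 0.98 with 1 library left out, negative without 5xFAD 3.

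Ttr had 466 counts or more in every library, so counting error is small for it. Otx2 and Aqp1 rested on 6 counts in Zbp1-cohort WT 1, and Slc4a5 on 6 in Ripk1-cohort 5xFAD 3, where depth limits the values.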
